A study of Homo sapiens with 6 samples.

Results

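Collagen and laminin genes encode the chains of the main structural proteins outside the cell. The 53 genes described here, of 54 that fit the rule, are protein-coding genes with a collagen chain symbol (COL, a number, A and a number, 42 genes) or a laminin chain symbol (LAMA, LAMB or LAMC and a number, 11 genes) in a table of 34738 genes. The rule uses symbol and biotype and no expression value. RNA was sequenced from a human thyroid cancer cell line, labelled KHM-5M, in 2 groups of 3 libraries, which the methods call biological replicates. In the siGDF15 group, GDF15 (growth differentiation factor 15, a secreted stress-induced cytokine) was silenced by transfection of a small interfering RNA, and the NC group was its control. The methods list a negative control siRNA beside that against GDF15 and speak of negative control cells for the sequencing. The deposited description instead names a blank control. From these sources it stayed unclear if the control siRNA was given to the sequenced NC libraries' cells. Results come from 1 line, for which a legend of the study names TPC-1, also a thyroid cancer line, where the labels name KHM-5M, and nothing further on dose or time of the sequenced cells was used.

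Collagen chains wind into triple helices. Fibrillar collagens (types I, II, III, V, XI, XXIV and XXVII) form the fibrils of connective tissue, and network-forming type IV collagen is laid into the basement membrane, the thin sheet on which epithelial cells rest. The other collagens decorate fibrils, form beaded filaments or short networks, span the cell membrane, or anchor the basement membrane to the tissue below. Laminins are cross-shaped trimers of an alpha, a beta and a gamma chain that bind cell surface receptors and seed the basement membrane. In the thyroid, each follicle of hormone-producing epithelial cells is wrapped in such a membrane.

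The values are FPKM (fragments counted over a transcript, relative to its length and to all fragments mapped in that library, so that levels can be set side by side between genes) and expected counts, which sum to 67569576 to 68025163 per NC library and to 51738814 to 67793417 per siGDF15 library. GDF15 itself stood at 22.4, 19.3 and 23.1 FPKM in NC and at 10.8, 10.5 and 10.7 FPKM in siGDF15, and its log2 fold change of -0.92 (SE 0.079, edgeR adjusted p = 2.4e-05) matched the labels. Of the thyroid markers, PAX8 had a mean of 59.1 FPKM in NC and was higher in siGDF15 (79.4 FPKM, log2 fold change 0.53, edgeR adjusted p = 0.00012), FOXE1 had a mean of 2.76 FPKM in NC, and TG, NKX2-1 and SLC5A5 were each under 1 FPKM in mean and so were absent or nearly so as markers of a differentiated thyrocyte. All 5 epithelial markers averaged at least 1 FPKM (KRT18 92.6 FPKM in NC) with CDH1 called higher in siGDF15 (0.61, edgeR adjusted p = 0.049, overlapping groups), all 5 endothelial markers were below that level, and of 5 leukocyte markers 1, the lysosomal gene CD68, was above it. The summed FPKM of 7 fibroblast markers was 9.19 to 11.6 in NC and 10.03 to 11.6 in siGDF15, most of it LUM. Of these markers ACTA2 was higher in siGDF15 (mean 1.48 FPKM in NC and 1.98 FPKM in siGDF15, log2 fold change 0.52, edgeR adjusted p = 0.021), and THY1, under 1 FPKM, was apart and higher. Apart and higher at such levels were also TG (mean 0.055 FPKM in NC and 0.186 FPKM in siGDF15), the endothelial TEK (0.124 and 0.320 FPKM) and the leukocyte CD14 (0.199 and 0.671 FPKM). The part of any of the markers in the results below was not tested. As the RNA came from bulk cultures, fewer cells with a transcript and less of it per cell cannot be told apart.

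Of the 53 genes, 25 had a mean of at least 1 FPKM over the 6 libraries and were tested with edgeR among 11867 genes, and 28 were below that level. None of the 25 passed this filter through 1 group alone. At an adjusted p under 0.05, 9 of the 25 were higher and 6 were lower in siGDF15, and 10 passed in neither direction. That is 60.0% called, where 61.4% of all tested genes were called, 30.0% higher and 31.4% lower, so that the share of collagen and laminin genes called was close to that of the table. The FPKM of the groups did not overlap for these 15 genes and overlapped for the other 10, and over all tested genes the groups did not overlap for 68.4%, with siGDF15 higher in 25.6% and lower in 42.8%. At the study's threshold for differentially expressed genes, which adds a log2 fold change of 1 or more in size, 1 of the 25 was lower (COL7A1) and 0 were higher, with 4.78% lower and 3.03% higher over all tested genes. No gene of the 25 had a fitted log2 fold change above 0.95, so the count of 0 was the same at an unadjusted p under 0.05. It was also 0 by DESeq2 and by limma. The count was 1 with the same median in each library, with the filter at 0.1 FPKM, with no filter and without NC replicate 2. COL4A5 reached up to 1.04 over the other settings. The median log2 fold change was 0.12 over the 25 genes (range -1.02 to 0.95) and 0.0026 over all tested genes, and the median size of the change was 0.33 and 0.31. The libraries also differ in composition, and a log2 fold change from edgeR is by 0.11 higher than the log2 ratio of the mean FPKM (median of 11865 genes), so a gene with slightly lower FPKM in siGDF15 can have a log2 fold change near 0.

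**Figure D1:**
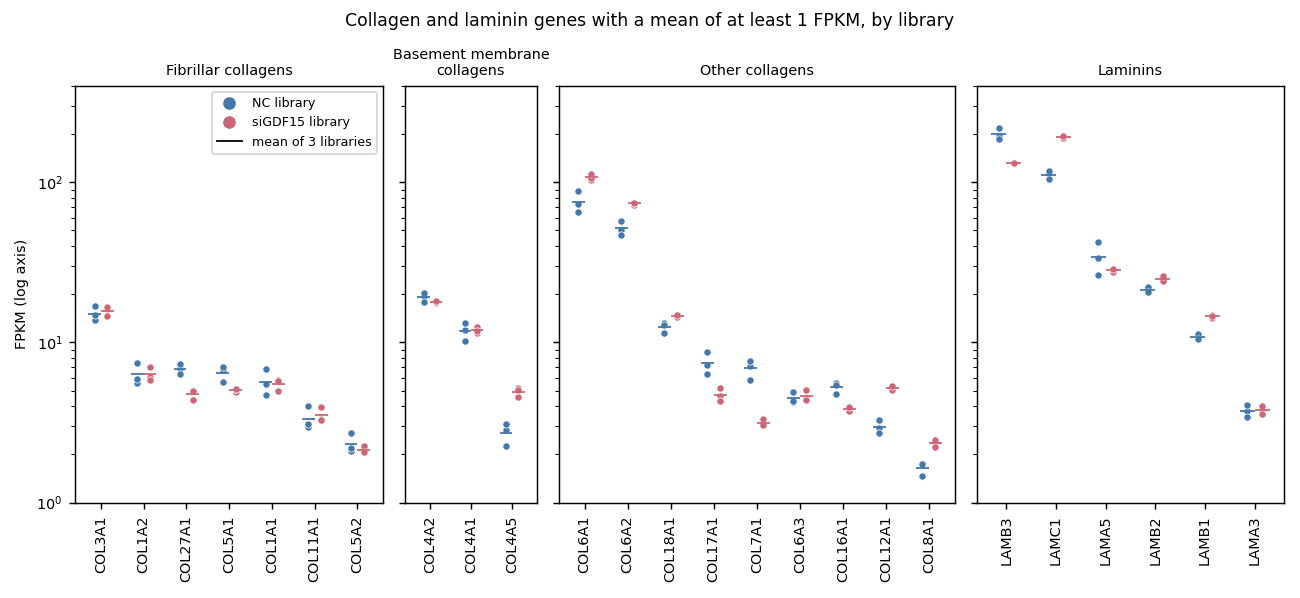
FPKM on a log axis of the 25 collagen and laminin genes with a mean of at least 1 FPKM, in the 3 NC (blue) and 3 siGDF15 (red) libraries, with a line at each group's mean. LAMB3, LAMC1, COL6A1 and COL6A2 lie far above the others, and the groups are apart for 15 genes.

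In NC, the 11 laminin genes were together more abundant than the collagens, with summed levels of 376, 417 and 353 FPKM against 246, 275 and 234 FPKM for all collagens. In siGDF15 the laminin sum was 398, 391 and 400.2 FPKM and the collagen sum 297, 303 and 306 FPKM. The laminin sums of the groups overlapped, while every collagen sum of siGDF15 was above every one of NC. By class, the fibrillar sums (means 47.42 FPKM in NC and 44.75 FPKM in siGDF15) and the type IV sums (34.01 and 35.04 FPKM) overlapped. Only the sum of the other collagens was apart (means 170.3 and 222.3 FPKM). Within it, COL6A1 rose from a mean of 75.3 to 107.3 FPKM and COL6A2 from 51.5 to 73.7 FPKM. On the FPKM scale, the collagen sum thus rose with these genes, and the fibrillar and type IV sums were not apart. These sums carry no TMM scaling, and a log2 fold change from edgeR is by 0.11 higher in median than the FPKM ratio. Sums that overlap narrowly here, as for the laminins and type IV, need not overlap after TMM scaling, which was not computed for sums.

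Within the laminins, the chains moved in opposite directions. Of 6 tested laminin genes, 3 were higher (LAMC1, LAMB1 and LAMB2), 1 was lower (LAMB3) and the 2 alpha chains were not called. That is 66.7% called, close to the 61.4% of all tested genes, of which 30.0% were higher and 31.4% lower. Of the chains that rose, LAMC1 and LAMB1 are the gamma and beta chains shared by the laminins of most basement membranes. LAMB2 is a beta chain known from kidney glomeruli and the neuromuscular junction. LAMB3 is the beta chain of laminin-332, the laminin beneath the basal cells of skin and other epithelia that is tied to hemidesmosomes.

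LAMC1, the gamma-1 chain found in most laminins, stood at 112, 117 and 105 FPKM in NC and at 194, 189 and 194 FPKM in siGDF15. Every siGDF15 library was above every NC library, with a log2 fold change of 0.90 (SE 0.045, 95% interval 0.79 to 1.00, edgeR adjusted p = 1.6e-06). The gene lies at chr1:183023420-183145592 on the plus strand (GRCh38 coordinates of the deposited table).

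LAMB3, the beta-3 chain of laminin-332 and the most abundant of the 53 transcripts in NC, stood at 195, 219 and 186 FPKM in NC and at 132, 132 and 132 FPKM in siGDF15. Its log2 fold change was -0.50 (SE 0.059, edgeR adjusted p = 0.00014). LAMB1, the beta-1 chain of laminins that carry gamma-1, had 10.8, 11.3 and 10.5 FPKM in NC and 14.8, 14.2 and 14.7 FPKM in siGDF15 (log2 fold change 0.53, SE 0.042, edgeR adjusted p = 1.6e-05). LAMB2, the beta-2 chain known from kidney glomeruli and the neuromuscular junction, had 20.9, 22.3 and 20.5 FPKM in NC and 24.5, 24.1 and 25.8 FPKM in siGDF15 (log2 fold change 0.33, SE 0.048, edgeR adjusted p = 0.00045). The groups of all 3 beta chains were apart, and the spread between libraries was smallest for LAMB3 in siGDF15, with an SD of 0.169 FPKM against 17.1 FPKM in NC.

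LAMA5, the alpha-5 chain that joins beta-1 or beta-2 and gamma-1, stood at 33.7, 42.4 and 26.4 FPKM in NC and at 28.2, 27.6 and 28.8 FPKM in siGDF15. The siGDF15 libraries lay inside the range of NC, and the log2 fold change of -0.17 (95% interval -0.49 to 0.15) did not pass the test (edgeR adjusted p = 0.31). Its coefficient of variation in NC, 23.5%, was the highest of the 25 genes. Without NC replicate 3, the lowest of the 6 libraries for LAMA5, the value was -0.32 with an edgeR adjusted p of 0.0071, and without NC replicate 2, the highest, it was 0.0097 with an edgeR adjusted p of 0.93. LAMA5 overlaps ADRM1 on the opposite strand, a gene whose mean count is 31.8% of that of LAMA5 and whose FPKM was 76.8 in NC and 55.5 in siGDF15, and whether the counting used strand is not given in the sources used here. LAMA3, the alpha chain of laminin-332, had a mean of 3.75 FPKM in NC and of 3.79 FPKM in siGDF15 and was not called (log2 fold change 0.12, 95% interval -0.04 to 0.28, edgeR adjusted p = 0.16), but passed without NC replicate 2 (0.18, edgeR adjusted p = 0.040).

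The make-up of the laminin transcripts shifted with these changes. LAMB3 made up 51.8, 52.6 and 52.8% of the summed FPKM of the 11 genes in NC and 33.2, 33.7 and 32.9% in siGDF15. LAMC1 made up 29.7, 28.1 and 29.8% in NC and 48.7, 48.4 and 48.6% in siGDF15, so that the leading laminin transcript was LAMB3 in every NC library and LAMC1 in every siGDF15 library. The ratio of LAMB3 to LAMA3 had a mean of 53.3 (SD 1.14) in NC and of 34.9 (SD 1.99) in siGDF15. LAMC1 to LAMA5 rose from 3.35 (SD 0.610) to 6.82 (SD 0.0685), and LAMC1 to LAMB1 from 10.3 (SD 0.221) to 13.2 (SD 0.0928). None of these ratios overlapped between groups, each with a two-sided exact permutation p of 0.1, the smallest that 3 against 3 libraries allow, and 0.2 after adjustment over the 12 chain ratios computed.

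**Figure D2:**
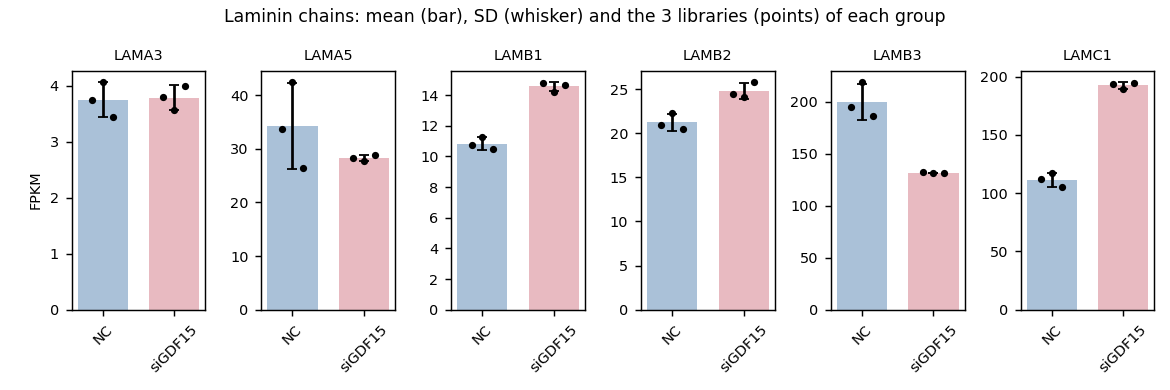
FPKM of 6 tested laminin chains, each panel on its own linear axis from 0, as the mean (bar), SD (whisker) and the 3 libraries (points) of NC and siGDF15. LAMB1, LAMB2 and LAMC1 were higher and LAMB3 lower in siGDF15, and the points of LAMA3 and LAMA5 overlap.

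Sequences upstream of the start of LAMC1 and LAMB3, the most abundant laminin genes shown, are shown from RefSeq (GRCh38.p14), in lower case with capitals for any GC box (bound by SP-family factors), CCAAT box, TATA box or AP-1 site found on either strand, leaving out bases annotated as untranslated. LAMC1 (chr1:183023170-183023419, plus strand, 250 bases) was 79.6% G and C with 3 GC boxes, and LAMB3 (chr1:209652467-209652675, minus strand, 209 bases) was 64.6% G and C with 1.
LAMC1: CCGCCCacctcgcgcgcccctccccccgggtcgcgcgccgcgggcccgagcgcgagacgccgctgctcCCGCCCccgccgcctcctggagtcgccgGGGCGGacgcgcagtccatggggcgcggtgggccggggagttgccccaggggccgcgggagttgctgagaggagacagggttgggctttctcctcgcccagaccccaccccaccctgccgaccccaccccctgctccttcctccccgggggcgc
LAMB3: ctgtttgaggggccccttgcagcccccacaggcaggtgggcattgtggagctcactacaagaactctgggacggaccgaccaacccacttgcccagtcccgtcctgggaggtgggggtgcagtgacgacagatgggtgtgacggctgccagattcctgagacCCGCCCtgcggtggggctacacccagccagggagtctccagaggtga

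COL7A1 and COL17A1, the collagens that act at the same junction as laminin-332, were lower. COL7A1, the chain of the anchoring fibrils that tie the basement membrane to the stroma, stood at 7.08, 7.69 and 5.87 FPKM in NC and at 3.12, 3.04 and 3.31 FPKM in siGDF15. Its log2 fold change of -1.02 (SE 0.092, 95% interval -1.23 to -0.80, edgeR adjusted p = 3.1e-05) was the lowest of the 25 genes and sat at the threshold of 1, so that it counted as a differentially expressed gene in 8 of 14 other settings (range -1.12 to -0.92) and was called lower in all 14. COL17A1, a transmembrane collagen of hemidesmosomes, stood at 7.21, 8.70 and 6.39 FPKM in NC and at 4.61, 4.32 and 5.19 FPKM in siGDF15. All siGDF15 libraries were below all NC libraries (log2 fold change -0.55, SE 0.11, edgeR adjusted p = 0.0029).

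Of 6 basement membrane (type IV) collagen genes, 3 were tested, of which COL4A5 was higher and COL4A1 and COL4A2 were not called. COL4A5, whose chain joins alpha-3 and alpha-4 or alpha-6, stood at 2.86, 3.10 and 2.26 FPKM in NC and at 5.16, 4.54 and 5.04 FPKM in siGDF15. The groups were apart, and its log2 fold change of 0.95 (SE 0.11, 95% interval 0.70 to 1.20, edgeR adjusted p = 0.00012) was the highest of the 25. Its partner chains were near zero, with COL4A3 and COL4A4 under 0.1 FPKM in mean and COL4A6 at 0.0933, 0.0758 and 0.0968 FPKM in NC and 0.102, 0.144 and 0.215 FPKM in siGDF15.

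COL4A1 and COL4A2, the chains of the type IV network found in all basement membranes, are encoded head to head on chromosome 13. COL4A1 stood at 11.98, 13.2 and 10.2 FPKM in NC and at 12.5, 11.5 and 11.8 FPKM in siGDF15 (log2 fold change 0.12, 95% interval -0.07 to 0.31, edgeR adjusted p = 0.23). COL4A2 stood at 19.5, 20.3 and 18.0 FPKM in NC and at 17.7, 18.0 and 18.2 FPKM in siGDF15 (log2 fold change 0.00, 95% interval -0.12 to 0.12, edgeR adjusted p = 0.97). The groups overlapped for both genes. COL4A1 was called higher (0.21, edgeR adjusted p = 0.025) without NC replicate 2, its highest library. The deposited ranges of the pair, COL4A1 at chr13:110148963-110307157 on the minus strand and COL4A2 at chr13:110305812-110513209 on the plus strand, overlap by 1346 bases, and their RefSeq starts lie 126 bases from each other. The ratio of COL4A2 to COL4A1 in FPKM had a mean of 1.65 (SD 0.113) in NC and of 1.51 (SD 0.0792) in siGDF15 (two-sided exact permutation test p = 0.2).

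Of 9 tested genes of the other collagens, 5 were higher, 3 lower and 1 not called, where all tested genes gave 30.0% higher and 31.4% lower. Their median log2 fold change was 0.33, against 0.0026 over all tested genes. COL6A1, COL6A2, COL12A1, COL8A1 and COL18A1 were higher, COL7A1, COL17A1 and COL16A1 lower, and COL6A3 was not called.

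Type VI collagen forms beaded filaments around cells from an alpha-1, an alpha-2 and an alpha-3 chain, and its alpha-1 and alpha-2 chains were the most abundant collagen transcripts in both groups. COL6A1 stood at 73.5, 87.6 and 64.9 FPKM in NC and at 103, 107 and 112 FPKM in siGDF15 (log2 fold change 0.62, SE 0.095, edgeR adjusted p = 0.00063). COL6A2 stood at 50.3, 57.3 and 46.9 FPKM in NC and at 72.5, 74.5 and 74.2 FPKM in siGDF15 (log2 fold change 0.62, SE 0.069, edgeR adjusted p = 9.5e-05). Both were apart between groups and lie on the same strand of chromosome 21, 93061 bases apart. The ratio of COL6A1 to COL6A2 in FPKM was 1.46 (SD 0.0714) in NC and 1.45 (SD 0.0445) in siGDF15 (two-sided exact permutation test p = 1). COL6A3, the alpha-3 chain, averaged 4.48 and 4.64 FPKM and was not called (log2 fold change 0.15, 95% interval -0.03 to 0.34, edgeR adjusted p = 0.13), but passed without NC replicate 3 (0.23, edgeR adjusted p = 0.019). The ratio of COL6A1 to COL6A3 was 17.0 (SD 3.56) in NC and 23.2 (SD 2.23) in siGDF15, without overlap, at the smallest exact permutation p of 0.1. COL6A1 alone was 29.9, 31.9 and 27.7% of the summed collagen FPKM in NC and 34.8, 35.2 and 36.6% in siGDF15.

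COL12A1, a fibril-associated collagen that bridges fibrils to their surroundings, stood at 2.92, 2.74 and 3.28 FPKM in NC and at 5.22, 5.08 and 5.33 FPKM in siGDF15. Its log2 fold change of 0.91 (SE 0.071, edgeR adjusted p = 1.3e-05) was next in size to that of COL4A5 among the genes that rose. COL8A1, a short-chain collagen that builds hexagonal networks, had 1.46, 1.74 and 1.75 FPKM in NC and 2.37, 2.46 and 2.23 FPKM in siGDF15 (log2 fold change 0.61, SE 0.091, edgeR adjusted p = 0.00052). COL18A1, a basement membrane collagen whose carboxy-terminal fragment is endostatin, had 13.2, 12.8 and 11.4 FPKM in NC and 14.4, 14.4 and 14.8 FPKM in siGDF15 (log2 fold change 0.33, SE 0.058, edgeR adjusted p = 0.0014). The groups were apart for all 3 genes. COL18A1 overlaps SLC19A1 on the opposite strand, whose mean count is 42.8% of that of COL18A1 and whose FPKM was 5.03 in NC and 3.61 in siGDF15. COL16A1, another fibril-associated collagen, averaged 5.24 FPKM in NC and 3.85 FPKM in siGDF15 and was lower (log2 fold change -0.34, edgeR adjusted p = 0.0029).

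Upstream bases of COL4A5 and COL7A1, the collagen genes with the highest and the lowest fitted change, are shown on the same terms. COL4A5 (chrX:108439588-108439837, plus strand) held 2 CCAAT boxes, at -247 and -239 from the start, and no GC box. COL7A1 (chr3:48595330-48595579, minus strand) held 3 GC boxes and 1 TATA box, at -124.
COL4A5: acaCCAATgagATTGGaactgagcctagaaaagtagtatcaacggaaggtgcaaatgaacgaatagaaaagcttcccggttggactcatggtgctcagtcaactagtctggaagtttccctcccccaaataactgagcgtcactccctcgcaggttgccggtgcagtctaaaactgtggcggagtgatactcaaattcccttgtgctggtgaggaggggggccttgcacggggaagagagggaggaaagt
COL7A1: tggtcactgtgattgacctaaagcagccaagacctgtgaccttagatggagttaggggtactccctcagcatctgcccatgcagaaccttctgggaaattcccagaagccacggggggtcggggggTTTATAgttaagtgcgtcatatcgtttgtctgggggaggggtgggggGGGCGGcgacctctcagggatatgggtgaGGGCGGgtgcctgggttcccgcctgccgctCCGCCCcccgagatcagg

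Over the 19 tested genes with a RefSeq entry, the 250 bases before the start held a GC box (GGGCGG) in 16 genes, a CCAAT box in 5, a TATA box (searched as TATAAA) in 3 and an AP-1 site (searched as TGAGTCA) in 1, LAMA3. The RefSeq start used for LAMA3 lies 183567 bases from the start of the deposited gene and that of LAMA5 15323 bases, so these windows need not belong to the transcripts counted. Over 27305 RefSeq promoters the shares with a match on either strand were 42.3, 33.0, 11.1 and 4.16%. The GC box was found in 6 of 7 such genes called higher and in 5 of 6 called lower, so that it did not separate the directions. The TATA box was found in COL7A1 and COL17A1, both lower, and in COL6A2, which was higher. Counted from the start, these matches began at -124, -206 and -32, so that only that of COL6A2 lay close to it. A match describes letters in the window and is no evidence of binding.

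Of 11 fibrillar collagen genes, 7 were tested, of which 2 were lower and 0 higher, where all tested genes gave 31.4% lower and 30.0% higher. The count of genes called higher was also 0 at an unadjusted p under 0.05, by DESeq2 and by limma. It was not 0 in every setting. COL11A1, COL3A1 and COL1A2 were called higher without NC replicate 3, and some fibrillar genes with the filter at 0.1 FPKM or with none, where more genes are tested. The 2 lower genes were COL27A1 (mean 6.84 FPKM in NC and 4.77 FPKM in siGDF15, log2 fold change -0.42, edgeR adjusted p = 0.00073) and COL5A1 (6.47 and 5.03 FPKM, log2 fold change -0.26, edgeR adjusted p = 0.020). COL5A1, a chain of the type V collagen that nucleates fibrils, lost its call without NC replicate 1 (edgeR adjusted p = 0.072), siGDF15 replicate 1 (0.071) or siGDF15 replicate 3 (0.054). The chains of the major fibrils were not called. COL3A1, the single chain of type III collagen, stood at 13.7, 14.8 and 16.9 FPKM in NC and at 16.2, 16.5 and 14.5 FPKM in siGDF15, with overlapping groups (log2 fold change 0.16, 95% interval -0.04 to 0.36, edgeR adjusted p = 0.14). COL1A1 and COL1A2, the chains of type I collagen, COL5A2 and COL11A1 averaged 2.14 to 6.32 FPKM in either group, with log2 fold changes of -0.03 to 0.18 and edgeR adjusted p-values of 0.26 to 0.85. The ratio of COL1A2 to COL1A1 in FPKM was 1.12 (SD 0.0661) in NC and 1.15 (SD 0.0918) in siGDF15 (two-sided exact permutation test p = 0.8).

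The order of the NC libraries differed between the classes. NC replicate 2 was the highest of them for 15 of the 25 genes, among them all 6 tested laminin and all 3 tested type IV genes, where over all tested genes it was highest for 43.9%. NC replicate 3 was the highest of the NC libraries for 5 of the 7 fibrillar genes (COL1A1, COL1A2, COL3A1, COL5A2 and COL11A1) and the lowest for all 6 tested laminin genes, whereas over all tested genes it was highest for 35.8% and lowest for 43.7%. COL1A1, for example, had 4.67, 5.53 and 6.78 FPKM in NC and 5.80, 5.71 and 4.99 FPKM in siGDF15. Of the 7 fibroblast markers, 6 were also highest in NC replicate 3, among them LUM at 4.78, 5.67 and 6.50 FPKM and PDGFRA at 0.920, 0.956 and 1.23 FPKM, whereas THY1 was lowest there, at 0.440, 0.478 and 0.316 FPKM. In siGDF15 LUM was at 5.93, 6.19 and 4.79 FPKM. The epithelial markers CDH1, EPCAM, KRT8, KRT18 and KRT19 were all highest of NC in replicate 3 too, and lowest in replicate 2. KRT8, for example, was at 15.0, 11.3 and 21.3 FPKM. The part of the fibroblast or the epithelial markers in the collagen values was not tested. Without NC replicate 3, COL11A1 (0.33, edgeR adjusted p = 0.011), COL3A1 (0.25, edgeR adjusted p = 0.0084) and COL1A2 (0.24, edgeR adjusted p = 0.038) were called higher, so that fibrillar genes then numbered 3 higher and 2 lower. The coefficient of variation between libraries had a median of 10.3% over the 25 genes in NC and of 4.17% in siGDF15, and of 6.82% and 4.84% over all tested genes.

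**Figure D3:**
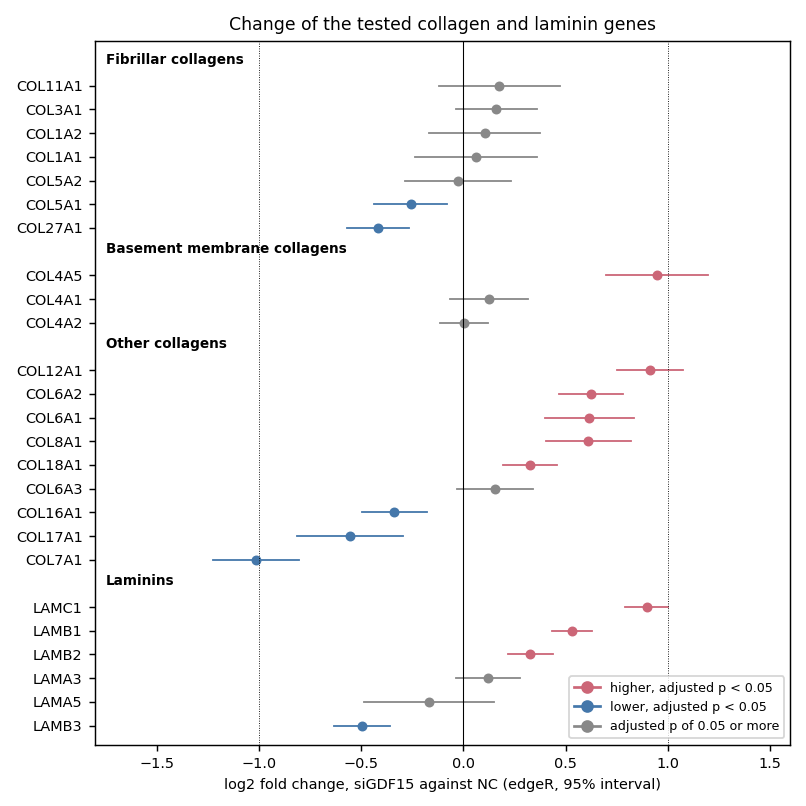
Log2 fold change of siGDF15 against NC from edgeR for the 25 tested genes, with 95% intervals, by class. Red and blue mark adjusted p-values under 0.05 (higher and lower), grey the rest, and dotted lines a log2 fold change of 1 in size, which COL7A1 alone passed.

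The remaining 28 genes, 23 of collagens and 5 of laminins, had a mean under 1 FPKM and are given by FPKM, without a fold change or test. Their means were under 0.1 FPKM for 18 genes and at least 0.5 FPKM for 3, which were COL13A1 (mean 0.900 FPKM), COL2A1 (0.822 FPKM) and COL8A2 (0.505 FPKM). COL2A1, the chain of cartilage fibrils, had 0.643, 0.774 and 0.928 FPKM in NC and 0.835, 0.951 and 0.798 FPKM in siGDF15, which overlapped. LAMB4, COL6A6, COL19A1, COL20A1, COL23A1, COL26A1 and COL5A3 were listed at 0 in at least 1 library. An absent transcript could still have given up to 12 counts (3 read pairs) in a library, and 6 genes were at or below this floor in every library, which covers counting error only.

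In 6 of the 28 genes every siGDF15 library was above every NC library, and in 0 every one was below, which is 21.4% higher, against 8.76% higher and 6.49% lower over all 22871 genes under 1 FPKM. The 6 genes were COL24A1, COL11A2, COL8A2, COL4A6, LAMA1 and LAMA2. COL8A2 and COL4A6 were barely apart. Their NC replicate 3 and siGDF15 replicate 1 had 154 and 156 counts for COL8A2 (0.439 and 0.445 FPKM) and 68 and 72 counts for COL4A6. COL24A1, a minor fibrillar collagen, had 0.0983, 0.138 and 0.117 FPKM in NC and 0.295, 0.322 and 0.323 FPKM in siGDF15. COL11A2, a chain of the type XI collagen of cartilage, had 0.305, 0.394 and 0.398 FPKM in NC and 0.571, 0.552 and 0.530 FPKM in siGDF15. LAMA2, the laminin chain of muscle and peripheral nerve, had 0.124, 0.192 and 0.143 FPKM in NC and 0.247, 0.255 and 0.235 FPKM in siGDF15. These levels are a small part of their families on the FPKM scale.

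**Figure D4:**
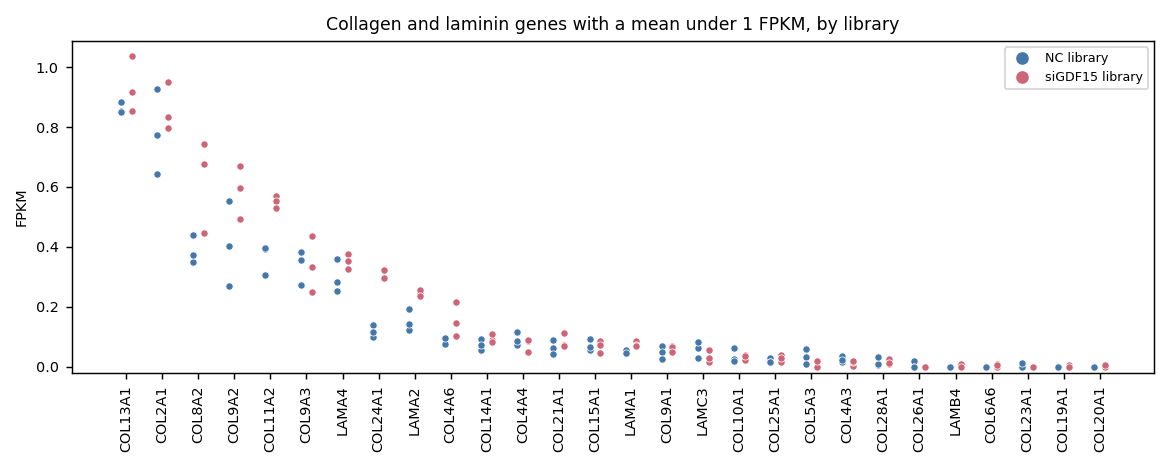
FPKM on a linear axis of the 28 collagen and laminin genes with a mean under 1 FPKM, in the 3 NC (blue) and 3 siGDF15 (red) libraries. COL13A1 and COL2A1 come closest to 1 FPKM, and the groups are apart for 6 genes, among them COL24A1, COL11A2 and LAMA2.

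Genes that modify, export, crosslink or bind collagens and laminins were taken from 6 lists. The lists were chosen with earlier results of these data known, so the shares called in them are descriptive and test no excess. Of 66 such genes in the table, 54 were tested, and 28 were higher, 10 lower and 16 not called (70.4% called, where all tested genes gave 61.4%). At a log2 fold change of 1 or more in size, 7 were higher (NID2, P3H2, LOXL4, PLOD2, BCAM, HSPG2 and SPARC) and 0 lower. The 7 became 4 with total count scaling and 3 or 4 by limma, with BCAM, HSPG2 and SPARC at 0.92 to 0.97 in these settings. The count of 0 was the same at an unadjusted p under 0.05 and by DESeq2, and 1 by limma with a pseudocount of 0.1. Their median log2 fold change was 0.30.

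Among enzymes and chaperones that modify and fold collagen chains in the endoplasmic reticulum, 9 of 17 tested genes were higher and 4 lower, where all tested genes gave 30.0% and 31.4%. One of the 9, P3H4, had overlapping groups and lost its call in 10 of 14 other settings (0.15, edgeR adjusted p = 0.032, and up to 0.45 in those settings). P3H2, a prolyl 3-hydroxylase that acts on type IV collagen, stood at 29.9, 26.4 and 32.9 FPKM in NC and at 80.3, 78.9 and 83.8 FPKM in siGDF15 (log2 fold change 1.55, SE 0.080, edgeR adjusted p = 1.8e-06). PLOD2, the lysyl hydroxylase of telopeptides, rose from a mean of 27.5 to 55.6 FPKM (log2 fold change 1.12, edgeR adjusted p = 7.6e-07). The 4 lower genes, named after their values were seen, were the collagen galactosyltransferase COLGALT1 (-0.63), the prolyl 4-hydroxylase subunit P4HA2 (-0.34), the ion channel TMEM38B (-0.32) and the collagen chaperone SERPINH1 (-0.22), in log2 fold change. P4HA2 lost its call without NC replicate 1 (edgeR adjusted p = 0.053) or siGDF15 replicate 3 (0.051). In the list of procollagen export and processing, 5 of 12 were higher and 4 lower, of which BMP1 (-0.14, edgeR adjusted p = 0.041) lost its call in 7 of 14 other settings, and the largest change was in PCOLCE2, an enhancer of procollagen C-proteinase, at 7.94, 8.99 and 8.56 FPKM in NC and 4.08, 3.87 and 4.38 FPKM in siGDF15 (log2 fold change -0.94, SE 0.073, edgeR adjusted p = 1.3e-05). In the list of crosslinking enzymes, 5 of 6 were higher and 0 lower, of which LOXL2 (0.24) lost its call by limma (adjusted p = 0.057 and 0.056), and the gene without a call, LOX, had a log2 fold change of 0.14. LOXL4, a lysyl oxidase, rose from 5.26, 5.38 and 5.00 FPKM in NC to 11.996, 12.6 and 12.8 FPKM in siGDF15 (log2 fold change 1.36, SE 0.060, edgeR adjusted p = 9.1e-07).

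Of 9 tested partners in the basement membrane, 6 were higher and 1 lower, where all tested genes gave 30.0% higher and 31.4% lower. NID2 and NID1 are nidogens, which link laminin to type IV collagen, and they moved in opposite directions. NID2 stood at 7.81, 8.69 and 6.75 FPKM in NC and at 22.8, 20.3 and 22.8 FPKM in siGDF15 (log2 fold change 1.61, SE 0.088, edgeR adjusted p = 2.2e-06). NID1, named after its value was seen, fell from a mean of 25.3 to 16.7 FPKM (log2 fold change -0.49, edgeR adjusted p = 0.00047). HSPG2, the proteoglycan perlecan, rose from a mean of 13.6 to 26.6 FPKM (log2 fold change 1.07, edgeR adjusted p = 3e-06), and SPARC, a collagen-binding glycoprotein, from 166 to 322 FPKM (1.06, edgeR adjusted p = 5.3e-05). Of 5 tested laminin receptors, 2 were higher and 1 lower, which is 60.0% called, close to the 61.4% of all tested genes. BCAM, a receptor for laminin alpha-5, rose from 23.3, 26.7 and 20.7 FPKM in NC to 43.2, 48.2 and 47.1 FPKM in siGDF15 (log2 fold change 1.07, SE 0.090, edgeR adjusted p = 1.9e-05). The integrin alpha chains, also named after their values were seen, went opposite ways, ITGA3 with a log2 fold change of 0.54 (edgeR adjusted p = 0.0010) and ITGA6 with one of -0.54 (edgeR adjusted p = 5e-05), whereas ITGB4, the partner of ITGA6 in hemidesmosomes, was not called (0.42, edgeR adjusted p = 0.066) but was called higher in 4 of 14 other settings, among them DESeq2 (adjusted p = 0.025) and the fit without NC replicate 3 (0.63, edgeR adjusted p = 0.0025). Of 5 tested collagen receptors, 1 was higher, the receptor tyrosine kinase DDR1 (log2 fold change 0.30, edgeR adjusted p = 0.0085, and 0.065 and 0.064 by limma), and 4 were not called.

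**Figure D5:**
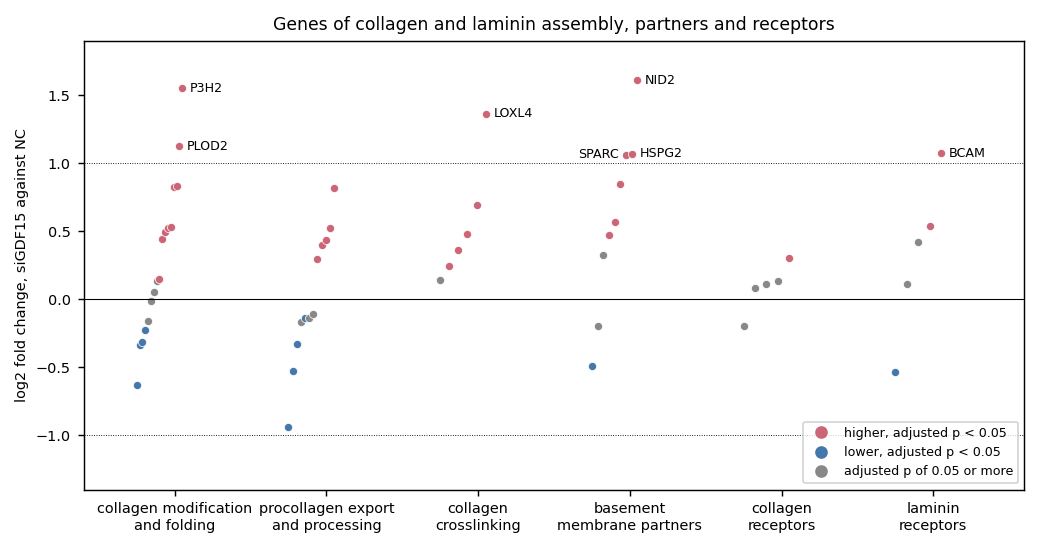
Log2 fold change of siGDF15 against NC from edgeR for 54 tested genes of 6 lists around collagens and laminins, 1 point a gene, with red and blue for adjusted p-values under 0.05 (higher and lower) and grey for the rest. The 7 named genes have a log2 fold change of at least 1, and LOX is the grey point among the crosslinking enzymes.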

How the data were processed

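The authors sequenced poly(A) RNA in dUTP-marked libraries as read pairs of 150 bases. Per the labels, fastp, HISAT2, StringTie and edgeR were used on GRCh38, and versions are not given in the sources used here. The deposited FPKM are scaled by transcript length and mapped fragments, and the deposited expected counts are whole numbers derived from coverage, not normalized. One read pair was taken as 4 counts, the most frequent value from 1 to 20 (15.6%).

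Groups followed the sample titles. The expected counts were tested with edgeR 4.0.16 (quasi-likelihood, TMM, two-sided, Benjamini-Hochberg over 11867 genes averaging 1 FPKM or more) in R 4.3.3. TMM factors were 1.03 to 1.04 in NC and 0.958 to 0.972 in siGDF15. The precision rests on 3 libraries per group. No libraries were identical, and 0 columns of other samples were present. Chain ratios were compared with an exact permutation test in scipy 1.17.1. Alternatives used DESeq2 1.42.0, limma 3.58.1 with pseudocounts of 1 and 0.1, other scalings and filters, the replicate block and each library left out. The code of the fit was run on simulated counts with a fixed dispersion and few changed genes. Such counts differ from these data, so that run does not measure the error of the calls here.

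The members and gene lists were chosen with earlier results of these data known. By a fixed rule, tested members are given per library where called with a log2 fold change of 0.5 or more in size or averaging 10 FPKM or more, others by name and range, and of the companion lists those changed by 1 or more, or else the largest change. Members shown per library and companion genes named outside this rule were chosen after their values were seen. One gene that fits the rule is not reported here, and counts, sums and shares leave it out. RefSeq promoters (GRCh38.p14) matched 41 of 53 members.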

Additional observations from a re-analysis of the deposited data

How the results depend on the processing

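Under 14 alternatives (total count scaling, the same median in each library, DESeq2, limma with pseudocounts of 1 and 0.1, a filter at a mean of 0.1 FPKM, no filter, the replicate block and each library left out), 14 of the 15 called genes were called in the same direction in all, the exception being COL5A1, and 3 of the 10 genes without a call stayed so in all. COL4A2 changed sign in 8, COL1A1 in 4, COL5A2 in 2 and LAMA5 in 1, none of them being called where its sign changed. LAMA3 was called higher with the same median in each library (0.18, adjusted p = 0.045) and without NC replicate 2. The number of the 25 genes called was 14 to 20 with 1 library left out, and 14 to 15 of the main calls were among them. Scaling set the balance of the table, since higher calls were 48.9% of all calls with TMM, 36.6% with total count, 36.6% with limma and 55.8% with the same median, and the median log2 fold change of all genes was -0.099 with total count.

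Collagen and laminin genes higher by a log2 fold change of at least 1 numbered 0, and 1 with the same median, with a mean FPKM of at least 0.1, with no filter and without NC replicate 2 (0 to 1 with a library left out). Those lower numbered 1, and 0 with the same median and with limma at a pseudocount of 1 (0 to 1 with a library left out). Fibrillar genes called higher numbered 0, and 2 with a mean FPKM of at least 0.1 and 2 with no filter, where more genes are tested (0 to 3 with a library left out), and those called lower 1 to 2 with a library left out. Basement membrane collagens called higher, and laminins called lower, numbered 1 to 2 with a library left out. Companion genes higher by a log2 fold change of at least 1 numbered 7, and 4 with total count, 3 with limma at a pseudocount of 1 and 4 at 0.1, and those lower 0, and 1 with total count, with limma at 0.1, with a mean FPKM of at least 0.1 and with no filter. Apart from the wider filters, the cause was not tested.

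The replicate numbers are shared by the groups, but deviations of same-numbered libraries correlated at 0.028, -0.075 and 0.046, so they are treated as numbers alone. With the replicate block, 6906 genes were called in place of 7286, and 15 of the 25, the same genes as without it, while of the companion genes named ITGB4 gained a call (adjusted p = 0.021) and P3H4 (0.087) and BMP1 (0.11) lost theirs. With 3 libraries per group and 12 counts as the floor of a library, changes in the genes under 1 FPKM are limited by depth. All p-values rest on these libraries of 1 line and do not extend to other lines.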
